A study of Mus musculus with 8 samples.

Results

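The genes described here are the neighbours of Tbx5 on mouse chromosome 5. They were taken by position alone: every non-control probe of the array that the scanner files place on chromosome 5 of mm9 with a start between 117000000 and 123400000, an interval of 6.4 Mb around Tbx5, was kept, except the probes of Tbx5, Tbx3, Myl2, Atp2a2, Rpl6, Ift81 and Tctn1. The interval held 160 probes, 15 of them belonged to the left-out genes (the files name Tctn1 by an older symbol, Tect1, and it was left out by its current symbol), and 145 probes of 92 genes remained, out of 41174 probes of 27827 gene names on the array. Of these, 83 probes of 56 genes met the filter on dim probes (detected clearly over background on the 4 arrays of 1 group or of both) and were tested, against 20029 probes tested on the whole array. The other 62 members did not meet this filter, 18 probes centromeric and 44 telomeric of Tbx5.

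Posterior second heart field (pSHF) tissue, the mesenchyme behind the heart that contributes to the atrial septum, was dissected from embryos at E9.5 after the neural tube had been cut away through the foregut. The study compared 4 Tbx5-/+ samples, heterozygous for a Tbx5 mutation, with 4 wild-type samples (labelled Tbx5 WT), numbered 1, 5, 6 and 7 in both groups; no other allele or treatment distinguished them. The Tbx5-/+ line was kept on a mixed background, the dams of both groups had been superovulated with gonadotropins, and the study's methods describe tissue that was pooled for RNA, so p-values measure the spread between these samples. RNA of each sample was hybridized as Cy3-labelled cRNA to 1 array, numbers 1 and 5 on the array labelled 1 and numbers 6 and 7 on the array labelled 2, which the scanner headers give as separate slides. The labels give no strain of origin for the mutated allele.

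Tbx5 encodes a T-box transcription factor that patterns the atria, the septum and the forelimb, and its loss of 1 copy causes Holt-Oram syndrome in people. It lies beside its paralog Tbx3 in a stretch with few genes, and the flanks carry unrelated genes that most cells use, among them a Mediator subunit, signaling phosphatases and kinases, anaphase-promoting complex subunits and mitochondrial enzymes, together with the interferon-induced Oas cluster of 2'-5' oligoadenylate synthetases. Genes next to a targeted locus are inherited together with it, which makes them a separate question from the rest of the genome in a comparison of mutant with wild-type embryos.

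The probe that read the mutated gene checked the labels. The Tbx5 probe at chr5:120334087-120334146 gave log2 values of 9.01, 9.73, 9.16 and 8.62 in Tbx5-/+ and 11.46, 11.55, 10.42 and 11.54 in wild-type (in the order of the numbers 1, 5, 6 and 7, as in every list of values here), a difference of -2.11 ± 0.32 (SE). The groups did not overlap, and the dimmer Tbx5 probe, at chr5:120321392-120332954, differed by -0.15. The neighbouring Tbx3 was left out of the members by the same rule, and its brighter probe differed by -1.08, also with no overlap.

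Several measures of the arrays moved with the groups. Spots well above background made up 45.0% to 52.8% of the array in Tbx5-/+ and 50.9% to 63.6% in wild-type, and over 3848 genes with probes at least 500 bases apart, the median log2 excess of the probe nearest the 3' end over the one nearest the 5' end was 1.63, 2.02, 2.16 and 2.07 in Tbx5-/+ and 1.60, 1.71, 1.80 and 1.66 in wild-type. Tbx5-/+ number 1 stood apart from the other 3 of its group on the first principal component (56.9% of the variance), at -37.7 among wild-type values of -52.3 to -9.95, and results are given with and without it. The median of all probes tested was -0.19 (Tbx5-/+ minus wild-type, log2) after variance stabilization (VSN), 0.13 after each array was also centred on its median, 0.09 after scaling to the 75th percentile and -0.01 after quantile normalization, so a member's difference is also given relative to that median. Of the markers of the tissue, 8 of 12 pSHF genes were well above background on all 8 arrays, and the log2 of their summed level was 14.95 to 17.37 in Tbx5-/+ and 16.07 to 16.45 in wild-type, with 4 of 12, Tbx5 among them, lower in every Tbx5-/+ sample. Endothelial markers, all 8 well above background, summed to 14.69 to 15.01 against 14.95 to 15.27, with 4 of 8 lower in every Tbx5-/+ sample, cardiomyocyte markers (11 of 12 detected on all arrays) to 18.24 to 19.37 against 18.50 to 19.11, and foregut endoderm markers (10 of 10) to 16.65 to 16.99 against 16.38 to 17.55. Markers of erythrocytes (6 of 9), liver bud (2 of 8), neural tube (5 of 8, Sox1 on no array) and somite (4 of 7, Myf5 on no array) overlapped between the groups. The marker counts were made on VSN values only. Of all probes tested, 8.81% were lower in every Tbx5-/+ sample by VSN, and 2.46% after each array was centred on its median. The part of detection, of the 3' excess or of the endothelial markers in any member's difference was not tested. In tissue, fewer cells of a type and less RNA per cell cannot be told apart.

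Each gene was read by 60-base probes. The following 4 are shown because they span an intron on the genome, so that each read spliced RNA at a known junction. The first 2 were lower in Tbx5-/+ samples (Aldh2 in the paired fit only). The third is 1 of 3 discordant probes of its gene and met the filter in wild-type samples only, and the fourth was not lower. Wsb2 lay at chr5:117821191-117824142 (plus strand), Aldh2 at chr5:122022137-122022690 (minus), Ptpn11 at chr5:121594679-121599156 (minus) and Arpc3 at chr5:122853397-122854152 (plus), all on mm9. Sequences are as the scanner files give them, 5' to 3', and their GC content was 45%, 45%, 45% and 43.3%.
Wsb2: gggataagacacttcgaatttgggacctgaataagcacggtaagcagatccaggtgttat
Aldh2: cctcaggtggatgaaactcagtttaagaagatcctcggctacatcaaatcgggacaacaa
Ptpn11: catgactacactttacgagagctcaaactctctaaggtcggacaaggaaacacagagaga
Arpc3: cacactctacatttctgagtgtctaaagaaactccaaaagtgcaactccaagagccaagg

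The tested flanking probes lay, at the median, below the array as a whole in the Tbx5-/+ minus wild-type difference, by an amount that depended on the filter. Their median difference was -0.46 in log2, or -0.27 relative to the median of all probes tested, and 67.5% of the 83 probes lay below that median, where the rest of chromosome 5 (1166 probes) had a median of -0.06 and 54.7% below it. The filter bears on these values: 21 of the 83 (25.3%, beside 16.1% of all probes tested) met it in wild-type samples only and 0 in Tbx5-/+ samples only, so that a lower Tbx5-/+ reading was a condition of their entry. Over the 62 members detected on all 8 arrays the median was -0.20 (rest of chromosome 5, -0.07), and over all 145 members with no filter -0.12 (rest of chromosome 5, -0.03). Leaving out Tbx5-/+ number 1 gave -0.35, and leaving out Tbx5-/+ number 6 gave -0.18. Members share samples and are not replicates, so no test is attached to these medians.

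The level of the members within each array had the other sign. The median member level relative to the array's median was -0.08, -0.22, -0.40 and -0.29 in Tbx5-/+ and -0.22, -0.25, -0.42 and -0.34 in wild-type. The groups overlapped, and the Tbx5-/+ sample was the higher one in all 4 same-numbered pairs, so the members as a group had no direction that both summaries shared.

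**Figure D1:**
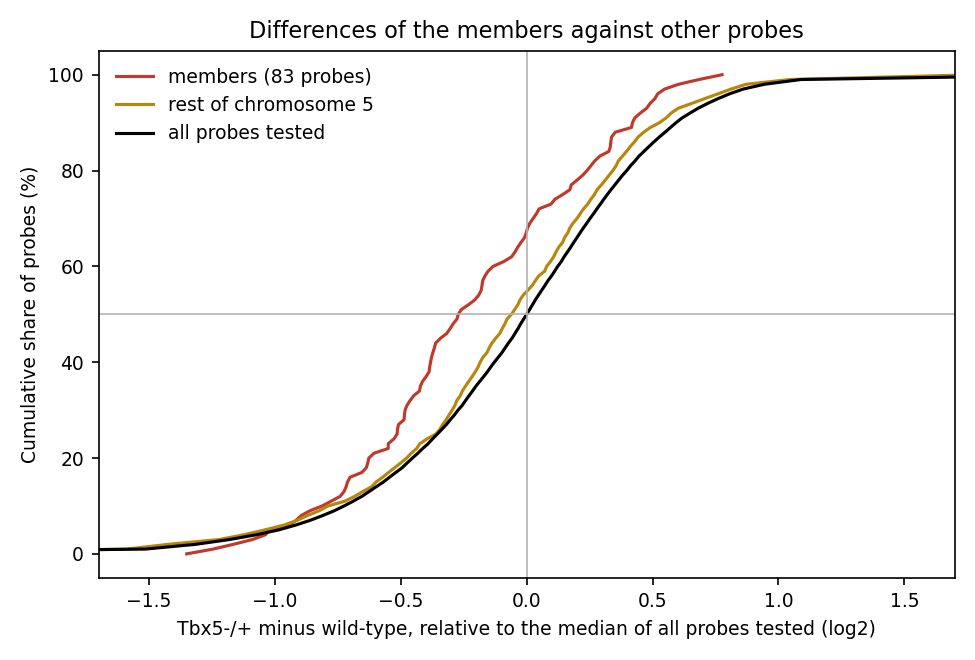
Cumulative share of probes (y axis, percent) by Tbx5-/+ minus wild-type difference relative to the median of all probes tested (x axis, log2), for the 83 member probes, the rest of chromosome 5 and all probes tested. The member curve crosses 50% at -0.27, left of the rest of chromosome 5 at -0.06.

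No single member passed the array-wide test. With limma and Benjamini-Hochberg adjustment over all 20029 probes, 0 of 83 member probes had an adjusted p under 0.05, as was the case for 0% of all probes in either direction; the smallest adjusted p among members was 0.0936. At an unadjusted p under 0.05, 25 member probes (30.1%) were lower, beside 18.2% of all probes and 19.6% of the rest of chromosome 5, and 0 were higher, beside 3.48% of all probes. This split depended on the filter and on the scaling. Over the 62 members detected on all 8 arrays it was 17 lower and 0 higher (rest of chromosome 5, 179 and 31 of 984 probes). Over all 145 members with no filter it was 20 and 1 (rest of chromosome 5, 229 and 63 of 2338). With the main filter it was 7 lower and 8 higher after centring each array on its median (beside 6.67% and 16.2% of all probes). It was 13 and 8 after 75th-percentile scaling (8.67% and 15.4%) and 13 and 5 after quantile normalization (9.45% and 9.59%). SAM, the test named in the study's methods, gave a q under 0.05 to 22 lower members (26.5%, against 17.3% of all probes) and to 0 higher ones (3.08%). With the embryo number as a block, limma gave 12 lower members of 9 genes (14.5%, beside 10.3% of all probes) and 0 higher ones (0.369%); 3 of the 12, the probes of TC1662565, Naa25 and 1 of Med13l, had met the filter in wild-type samples only. Without Tbx5-/+ number 1, which left 3 against 4 samples, limma called 14 members lower (16.9%, beside 12.1%) and 2 higher, Pptc7 and the brighter Anapc5 probe (2.41%, beside 7.18%). With weights for the quality of each array, limma called 44 members lower (53%, beside 32.9% of all probes) and 7 higher (8.43%, beside 16.6%).

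In 8 member probes of 7 genes, every Tbx5-/+ value lay below every wild-type value, and in 0 members every value lay above. These were 9.64% of the tested members, close to 8.81% of all probes and 9.95% of the rest of chromosome 5, with 0.759% of all probes separated upward. How many were separated depended on the scaling between arrays: after centring each array on its median, 4 members were separated downward and 4 upward (beside 2.46% and 8.94% of all probes), after 75th-percentile scaling 6 and 3 (3.76% and 9.59%), and after quantile normalization 7 and 2 (3.95% and 5.11%). Without Tbx5-/+ number 1 the members separated were 22 downward (26.5%, beside 21.7% of all probes) and 10 upward (12%, beside 16.2%). Probes that were separated downward under all 4 scalings numbered 4 among the members (4.82%, beside 1.95% of all probes and 2.12% of the rest of chromosome 5), and read Taok3, Wsb2, Med13l and Atxn2. The member share was above both others but rests on only 4 probes, and the members separated upward under all 4 scalings were 0 (0.544% of all probes).

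**Figure D2:**
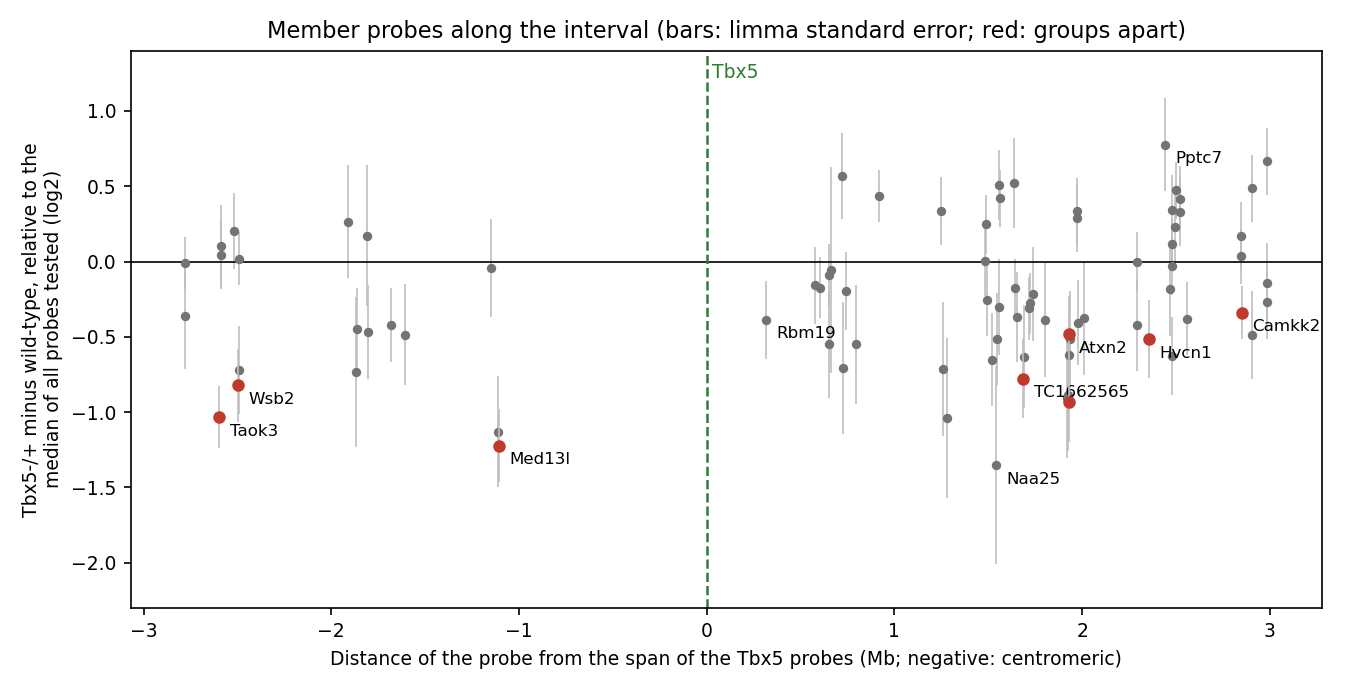
Each point is 1 tested member probe at its distance from the Tbx5 probes (x axis, Mb, negative on the centromeric side), with its Tbx5-/+ minus wild-type difference relative to the median of all probes tested (y axis, log2) and its limma standard error; red marks the 8 probes whose groups did not overlap. The red points lie between -1.22 and -0.34 on both flanks, and none of them lies within 1 Mb of Tbx5.

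Med13l, which encodes a subunit of the Mediator kinase module that links transcription factors to RNA polymerase II, is the nearest tested member on the centromeric side. Its brightest probe, 1108 kb from Tbx5, read 12.45, 11.80, 11.50 and 12.00 in Tbx5-/+ and 13.04, 13.33, 13.31 and 13.70 in wild-type. Every Tbx5-/+ value was lower than every wild-type value, a difference of -1.41 ± 0.24 (SE) or 2.66-fold, with a limma adjusted p of 0.0936 over all probes and 0.0346 with the embryo number as a block. A dim probe 6 kb upstream of it was well above background on 1 of 4 Tbx5-/+ arrays, so that it entered through the wild-type samples, and read 7.13, 6.33, 5.47 and 6.42 against 8.13, 7.51, 6.99 and 7.98. The third Med13l probe, the one nearest the 5' end, overlapped between the groups, at 7.52, 7.92, 8.24 and 8.47 against 7.43, 8.20, 8.74 and 8.70, with a difference of -0.23 and a block adjusted p of 0.382. So the 3' reading of this gene was separated while the 5' reading was not, the reverse of the array-wide order in which 3' probes were the higher ones in Tbx5-/+.

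Taok3, a serine/threonine kinase of the STE20 family, lies 2598 kb centromeric of Tbx5. Its tested probe read 10.79, 11.05, 10.30 and 10.75 in Tbx5-/+ and 12.01, 12.15, 11.75 and 11.86 in wild-type. The groups did not overlap, with a difference of -1.22 ± 0.21 (SE) or 2.33-fold, with a limma adjusted p of 0.0936 (0.0346 with the block and 0.0122 without Tbx5-/+ number 1). The same-numbered samples differed by -1.22, -1.10, -1.44 and -1.11, nearly alike in every pair, and Tbx5-/+ number 1 showed the difference as fully as the others. The 3 further Taok3 probes were too dim to be tested.

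Wsb2, which encodes a WD-repeat protein with a SOCS box, lies about 100 kb from Taok3. The intron-spanning probe printed above read 8.45, 8.60, 7.70 and 7.82 in Tbx5-/+ and 9.29, 9.29, 8.97 and 9.05 in wild-type, a difference of -1.01 ± 0.24 (SE). A second probe near the 3' end read 8.76, 9.23, 7.86 and 8.46 against 9.41, 9.85, 9.17 and 9.50, a difference of -0.91 with an overlap at number 5. Both Wsb2 probes were lower in Tbx5-/+ in all 4 same-numbered pairs, with block adjusted p of 0.0346 and 0.0372 by limma; without the block they were 0.102 and 0.17. Between Taok3 and Wsb2 the array reads Pebp1, an inhibitor of Raf signaling, whose 2 bright probes differed by -0.14 and -0.08, and Vsig10 at 0.01, so the lower readings did not run through every gene of the stretch.

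Atxn2, which encodes an RNA-binding protein of stress granules and is read by 4 tested probes about 1.9 Mb telomeric of Tbx5, was the gene with the most lower probes. The brightest read 11.88, 11.78, 10.97 and 11.37 in Tbx5-/+ and 12.36, 12.83, 12.31 and 12.99 in wild-type, with a difference of -1.12 ± 0.26 (SE), an adjusted p of 0.0992 by limma and 0.0361 with the block. A probe 1 kb upstream was also separated, at 8.90, 8.56, 8.50 and 7.81 against 9.44, 9.03, 8.90 and 9.07, though it overlapped under the other 3 scalings. The 2 probes nearest the 5' end gave differences of -1.10 and -1.07, in which wild-type number 1 was low (6.94 and 6.80) and the other wild-type samples stood at 8.34 to 8.92. The second of these 2 was well above background on 2 of 4 Tbx5-/+ arrays, so it entered through the wild-type samples, which favoured a lower Tbx5-/+ reading beforehand. The 4 probes differed by -1.12 to -0.67, and relative to the median of all probes each stayed below 0 under every scaling tried. Next to Atxn2, Sh2b3, an adaptor that restrains cytokine receptor signaling, read -0.81 and -0.70 by its probes with overlapping groups; 1 of them, named after its value was seen, passed in the paired fit (adjusted p = 0.0459).

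The remaining separated probes were dim or differed less, and none of them was separated under every scaling. A probe for the transcript cluster TC1662565, about 1 kb from the Aldh2 probe and without a current gene name, read 6.93, 6.81, 6.16 and 6.45 against 7.86, 7.46 and 7.89 in wild-type numbers 5, 6 and 7, with wild-type number 1 above the highest Tbx5-/+ value by only 0.07, so that number 1 alone held the groups close together. Hvcn1, a voltage-gated proton channel of immune cells, read 9.76, 9.61, 8.80 and 9.61 against 10.01, 10.27, 9.79 and 10.49, a difference of -0.70. Camkk2, the kinase that activates CaMK and AMPK pathways, read 9.59, 9.88, 9.65 and 9.46 against 10.10, 10.11, 10.14 and 10.34 by 1 probe, while the other one, 1.83 kb downstream, differed by -0.15 and overlapped. After centring each array on its median, the probes of TC1662565, Hvcn1 and Camkk2 and the dimmer Atxn2 probe overlapped between the groups.

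**Figure D3:**
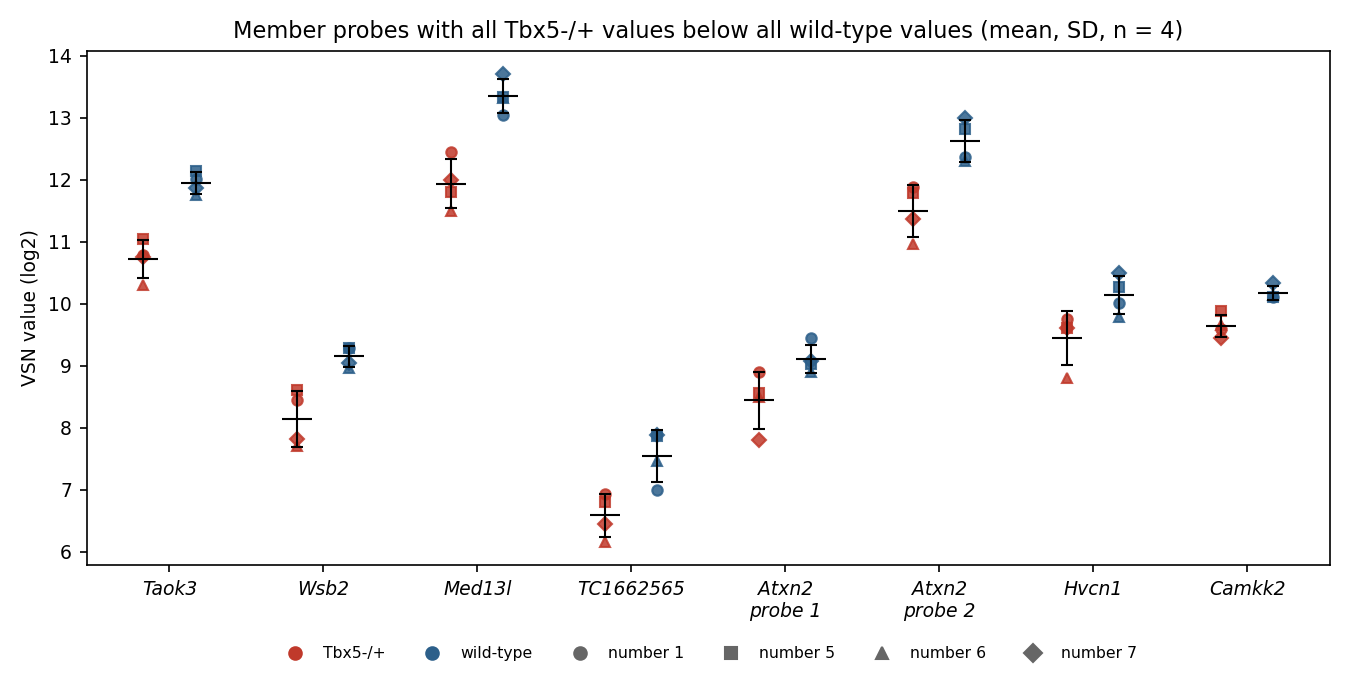
VSN values (y axis, log2) of the 8 member probes whose groups did not overlap, with Tbx5-/+ samples in red, wild-type in blue, marker shapes for the embryo number, and bars for the mean and SD of 4 samples. The widest gaps are those of Taok3 and Med13l, and the groups of TC1662565 nearly touch at number 1.

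Distance from Tbx5 did not order the differences. The 11 tested member probes within 1 Mb, of 10 genes, had a median relative difference of -0.17 with 0 separated and 0 at an unadjusted p under 0.05 by limma. The 40 probes at 1 to 2 Mb had a median of -0.41, with 4 separated and 17 lower at that p, and the 32 probes at 2 to 3 Mb a median of -0.01, again with 4 separated and with 8 lower at that p. Over all probes 8.81% were separated downward and 18.2% lower at that p. Spearman's rho of distance and relative difference was 0.19 over 83 probes, a description over probes that share samples. By side, the 19 centromeric probes (13 genes) had a median of -0.42 and the 64 telomeric probes (43 genes) one of -0.24.

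The nearest tested members all lay telomeric of Tbx5, since no centromeric member within 1 Mb was bright enough (the left-out Tbx3 lies on that side). Rbm19, an RNA-binding protein of ribosome assembly 315 kb away, read 13.35, 13.49, 12.53 and 12.65 in Tbx5-/+ and 13.61, 13.59, 13.29 and 13.80 in wild-type. Numbers 6 and 7 carried the difference, with pair differences of -0.26, -0.10, -0.77 and -1.15, and the limma adjusted p was 0.233. Ddx54, an RNA helicase, read 14.66, 14.69, 13.68 and 14.14 against 14.91, 14.60, 14.39 and 14.80, again with the lowest value at number 6.

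The other genes of this stretch overlapped between the groups too. Sdsl, a serine dehydratase-like enzyme, differed by -0.35, Plbd2, a lysosomal hydrolase, by -0.36, Slc8b1, the mitochondrial sodium/calcium exchanger, by -0.74, and Dtx1, a Notch pathway ubiquitin ligase, by -0.74. Rita1, which binds the Notch effector RBPJ, read 9.15, 8.66, 6.87 and 8.24 against 9.63, 9.03, 8.74 and 9.09, or -0.89 with an SE of 0.44. The low values of Tbx5-/+ number 6 weighed on these differences: without it the relative difference went from -0.71 to -0.29 for Rita1, from -0.55 to -0.22 for Slc8b1, from -0.55 to -0.30 for Dtx1 and from -0.19 to -0.03 for Ddx54. Without wild-type number 5, that of Dtx1 was -0.32. Tpcn1, a cation channel of endolysosomes, differed by -0.28 and -0.24 by its probes, the second of which was low on number 1 of both groups (6.89 and 7.99, against 9.61 to 9.88 elsewhere). Iqcd, a cilium-associated IQ-motif protein, was the only one besides Oas1c above wild-type, by 0.38. Its relative difference of 0.57 became 0.33 to 0.72 when 1 sample was left out.

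**Figure D4:**
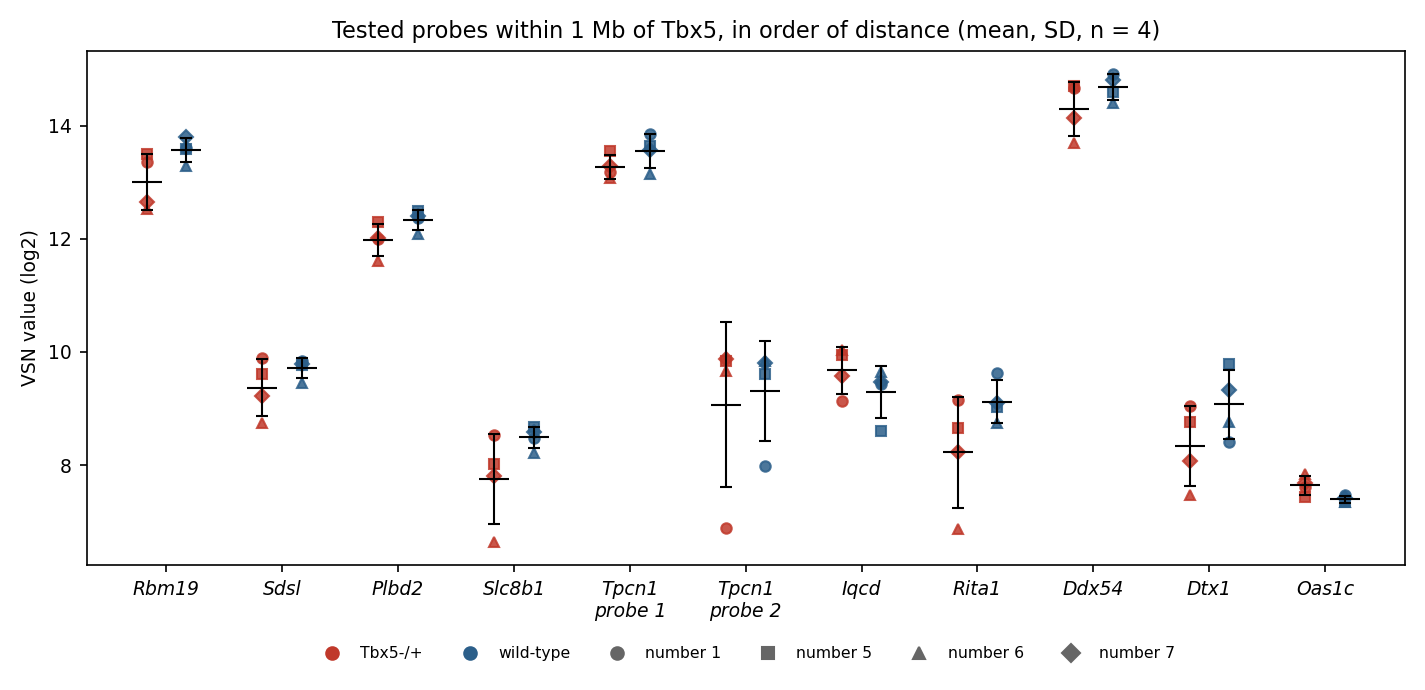
VSN values (y axis, log2) of the 11 tested member probes within 1 Mb of Tbx5 in order of distance, with Tbx5-/+ in red, wild-type in blue, marker shapes for the embryo number, and bars for the mean and SD of 4 samples. The groups overlap at every probe, and in Slc8b1, Rita1 and Ddx54 the lowest point is Tbx5-/+ number 6.

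The Oas cluster, 0.8 to 1.0 Mb telomeric of Tbx5, was mostly silent to the array. Of 13 probes of 10 genes only that of Oas1c was well above background on enough arrays to be tested, and 8 probes were above background on no array. Oas1c read 7.61, 7.44, 7.85 and 7.68 in Tbx5-/+ and 7.47, 7.34, 7.35 and 7.42 in wild-type, a difference of 0.25 with a limma adjusted p of 0.379, and the groups overlapped by the VSN values and after 75th-percentile scaling, but not after centring or quantile normalization. The members of this family resemble each other in sequence, so a dim reading of one may hold signal of another.

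By role, the lower members were spread over many functions. Of the transcription and chromatin genes (9 probes of Med13l, Cux2, Kdm2b and Suds3), 2 probes, both of Med13l, passed in the paired limma fit (the dimmer one having entered through the wild-type samples), and the median relative difference was -0.36. The RNA processing and translation genes (9 probes of Rbm19, Ddx54, Atxn2 and Naa25) had 3 passing in that fit, 1 of them, of Naa25, detected on 3 of 4 Tbx5-/+ arrays, and a median of -0.48. The signaling genes (19 probes of 12 genes) had 2 passing, those of Taok3 and Sh2b3, and a median of -0.34. Their values ran from -1.04 for a Ptpn11 probe that had entered through the wild-type samples to 0.78 for Pptc7, a mitochondrial phosphatase. Beside them, 10.3% of all probes passed downward in the paired fit.

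Among the other groups, the ubiquitin ligase and anaphase-promoting complex genes (9 probes of 7 genes) had a median of -0.42 and 0 passing, with Rnf34 at 0.66 and Fbxo21 at -0.45 and -0.73. The mitochondrial and amino acid enzymes (7 probes of 5 genes) had a median of -0.22 and 1 passing, the Aldh2 probe printed above, which clears acetaldehyde; it read 10.97, 10.17, 9.41 and 9.97 against 11.45, 10.91, 10.41 and 11.02 (block adjusted p = 0.0386 by limma, 0.216 without the block). The trafficking, cytoskeleton and folding genes (11 probes of 7 genes) had a median of 0.12 with 3 passing, both Wsb2 probes and 1 of Vps29, a retromer subunit. Wsb2, a SOCS-box protein, was placed in this list and not with the ubiquitin ligases, so the counts of both groups hold only for the lists as drawn. Channels and transporters (5 probes of 4 genes) had a median of -0.09, and the genes listed under cell death, DNA damage and GTPases (4 probes of 3 genes) one of 0.34, each with 0 passing. The latter list includes Pheta1, an endosomal adaptor, at 0.29 and 0.33, so its median does not describe the named role alone. Aldh2, Vps29 and Naa25 were named after their values were seen.

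Where a gene had several probes, they often gave different readings. Of 21 member genes with more than 1 tested probe, 12 (57.1%) had all probes below the median of all probes, 3 all above, and 6 (28.6%) on both sides of it, where 31.8% and 42.4% of the 4675 such genes on the array were all below and on both sides. Ptpn11, the SHP2 phosphatase of receptor tyrosine kinase signaling, was read by a bright probe near its 3' end at 14.55, 15.39, 15.47 and 15.25 in Tbx5-/+ and 15.02, 14.92, 15.13 and 14.98 in wild-type. Its intron-spanning probe read 7.66, 6.03, 6.37 and 5.54 against 7.89, 7.28, 6.55 and 7.48, and its most 5' probe 8.07, 5.62, 7.09 and 5.42 against 8.25, 7.48, 7.68 and 7.69. The first reading was higher in 3 of 4 pairs and the others lower in 4 of 4, with groups that overlapped in all 3.

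Naa25, an auxiliary subunit of an N-terminal acetyltransferase listed in the files as C330023M02Rik, held the largest difference of all members. Its most 5' probe read 9.86, 7.74, 6.39 and 7.12 in Tbx5-/+ and 10.17, 9.26, 8.56 and 9.26 in wild-type, or -1.54 ± 0.66 (SE), with Tbx5-/+ number 1 inside the wild-type range; it was well above background on 3 of 4 Tbx5-/+ arrays. The pair differences were -0.31 at number 1 and -1.52, -2.17 and -2.14 at the others (block adjusted p = 0.0366 by limma). The 2 brighter probes nearer the 3' end differed by 0.32 and -0.49, so the gene as a whole had no single direction.

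Anapc5, a subunit of the anaphase-promoting complex, was the brightest member. Its brighter probe read 16.20, 16.95, 16.98 and 17.08 in Tbx5-/+ and 16.45, 16.55, 16.50 and 16.50 in wild-type, higher in all but number 1, while a second probe, which spans an intron, read 13.62, 13.65, 12.45 and 13.17 against 14.20, 13.98, 13.51 and 13.90. The other bright members showed differences within their spread: Erp29, a chaperone of the endoplasmic reticulum, differed by 0.23, Pheta1, an endosomal adaptor, by 0.15 and 0.10, and Ppp1cc, a catalytic subunit of protein phosphatase 1, by -0.19 and -0.61. Relative to the median of all probes, the bright probes of Anapc5, Erp29 and Ptpn11 were at 0.34 to 0.49 after VSN and at -0.06 to -0.02 after quantile normalization, so they had no direction that all scalings shared.

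The 3' and 5' readings can be set side by side in 16 member genes whose outermost probes lay at least 500 bases apart. The 3' probe had the higher difference in 10 of them (62.5%), beside 68.7% of 3848 genes on the array, and the medians were -0.24 for 3' probes and -0.40 for 5' probes, against 0.07 and -0.19 over the array. Both ends of the member genes thus lay below their array-wide counterparts. Some of the 5' probes, among them those of Ptpn11, Naa25 and Acad12, had met the filter in wild-type samples only, which favoured a lower Tbx5-/+ reading beforehand. With the array's probes split by level into 3 equal parts, the 33 members in the dim part, 21 of which had met the filter in wild-type samples only, had a median relative difference of -0.41 (all probes there -0.08), the 19 in the middle part one of -0.34 (-0.09) and the 31 in the bright part one of -0.0013 (0.17).

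**Figure D5:**
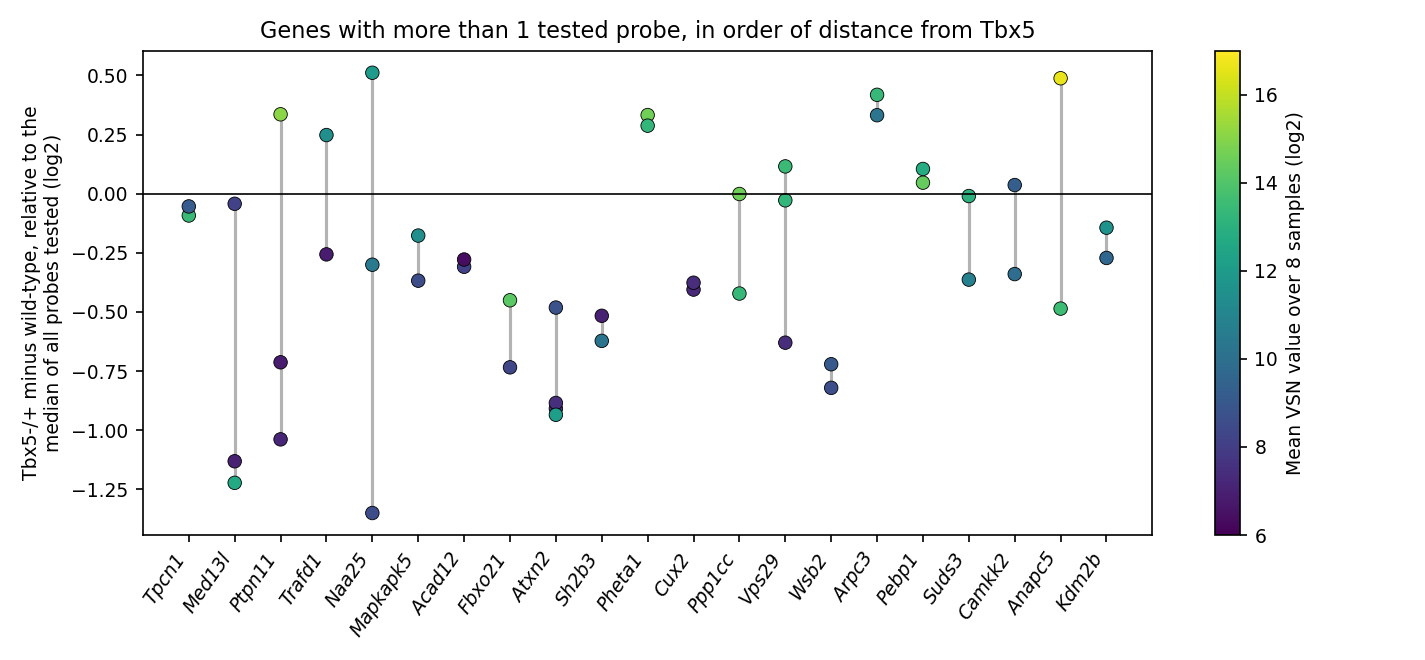
Tbx5-/+ minus wild-type differences relative to the median of all probes tested (y axis, log2) for the 21 member genes with more than 1 tested probe, in order of distance from Tbx5, coloured by the probe's mean VSN value over 8 samples. Ptpn11, Naa25 and Anapc5 have probes on both sides of 0, with the brightest above it, while all 4 Atxn2 and both Wsb2 probes lie below.

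The sizes of the differences on each slide can be given for the 4 genes separated under every scaling, whose direction that separation fixes. On the array labelled 1 (numbers 1 and 5) the relative differences were -0.98 for Taok3, -0.59 for Wsb2, -0.88 for Med13l and -0.58 for Atxn2. On the array labelled 2 (numbers 6 and 7) they were -1.09, -1.06, -1.57 and -1.29. The differences on the second slide were the larger ones for each gene.

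On the upper side, no member was separated after VSN. Pptc7, 2440 kb telomeric, had the highest difference, with 12.95, 13.95, 14.50 and 13.70 in Tbx5-/+ against 13.23, 13.03, 13.47 and 13.01 in wild-type, or 0.59 ± 0.31 (SE): number 1 lay below the wild-type samples and the others above. Rnf34, a RING ubiquitin ligase, was higher by 0.48, in all pairs but number 1, and Gpn3, a GTPase in RNA polymerase II assembly, by 0.29. Erp29, Oas1c, Rnf34 and Gpn3 were the 4 members separated upward once each array was centred on its median; Pptc7, Rnf34 and Gpn3 were named after their values were seen.

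Among the dimmest members, a transcript named AK041569 and 1 of the Acad12 probes were well above background on all wild-type arrays and on 0 Tbx5-/+ arrays, so that only a bound can be given; they entered through the wild-type samples, which set the direction beforehand. Setting the dim group on each array at the higher of its own value and the lowest signal among probes well above background, the group mean of AK041569 was at least 1.35-fold lower in Tbx5-/+ (5.70 measured against 6.54, limma adjusted p = 0.198) and that of the Acad12 probe at least 1.19-fold lower (6.15 against 6.62, adjusted p = 0.226). These bounds carry no error. The groups of both probes overlapped after VSN and after centring. AK041569 was separated downward after 75th-percentile scaling and quantile normalization, and the Acad12 probe after quantile normalization.

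RefSeq promoters (250 bases before to 50 after the start, GRCm38.p6) were searched for the core T-box motif AGGTGT on both strands (ACACCT on the other). Of 49 promoters found for 41 of the 51 tested genes with a current symbol, 3 (6.12%) held it, beside 13.7% of all 32851 promoters; they belong to Trafd1, Atxn2 and Kdm2b. Of the genes with a separated probe, promoters were found for 5, and that of Atxn2 alone held the motif. Its 250 bases before the start, at chr5:121711359-121711608 on the plus strand, are shown since Atxn2 had the most lower probes, with the motif, which begins 59 bases before the start, in capitals.
Atxn2 promoter: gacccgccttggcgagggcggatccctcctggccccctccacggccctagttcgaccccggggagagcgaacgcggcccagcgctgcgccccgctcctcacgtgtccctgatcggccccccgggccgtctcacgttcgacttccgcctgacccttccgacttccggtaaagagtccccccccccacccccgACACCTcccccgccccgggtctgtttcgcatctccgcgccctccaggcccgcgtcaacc
The match is a description of the letters in this window.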

How the data were processed

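RNA of 8 samples (4 Tbx5-/+, 4 wild-type) was measured on 1-colour Agilent arrays. Spot intensity came from the scanner output, written per the file headers by Agilent Feature Extraction 10.5.1.1 with mm9 positions and quality marks. For 22405 probes the authors also deposited log2 values, made by background correction and VSN. Here each spot's local background was taken off its mean signal. Each array held 43379 non-control spots, and 1115 outlier spots, counted over all 8 arrays, were left out. The spots of 245 repeated probes were averaged, and 0 spots were saturated. VSN was programmed in R 4.3.3 (90% of probes kept, 7 iterations) and tested on simulated data; on each array Pearson's r with the values of the authors was 0.9999 or higher.

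Groups were compared with limma 3.58.1 (two-sided, no covariate, Benjamini-Hochberg over 20029 probes, threshold 0.05). The same embryo numbers occur in both groups. Deviations from the group means correlated at 0.438, 0.400, 0.592 and 0.137 between same-numbered samples (1, 5, 6 and 7), all above 0.1, so the numbers were taken to pair the samples; number 7 correlated more with wild-type number 6 (0.371). The number of arrays limits the precision. SAM was run over all 70 assignments. Symbols were updated through RefSeq (125 of 145 members). The members, gene lists and tests were chosen with earlier results of these data known. Named were the tested genes within 1 Mb of Tbx5, up to 10 probes a direction with separated groups, the 5 brightest probes and the Oas genes, with all their tested probes; genes beyond the rule are marked. The alternatives tried were other scalings (75th percentile of the processed signal, normexp with an offset of 50 and quantile normalization, median centring, the deposited values), other filters on dim probes, blocks, array weights, SAM, 1 probe per gene and leaving out each sample.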

Additional observations from a re-analysis of the deposited data

Results flagged for a closer look

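In 70 groups of 4 values, those of the tested probes of the named genes, 7 held 1 sample far from the other 3 by Dixon's ratio, which chance does in about 1 group in 20. Number 1 was the sample in 5 of them. The second Tpcn1 probe read 6.89 in Tbx5-/+ number 1, with the others at 9.67 to 9.88, and 7.99 in wild-type number 1, with the others at 9.61 to 9.84. The 2 most 5' Atxn2 probes read 6.94 and 6.80 in wild-type number 1, below 8.63 to 8.92 and 8.34 to 8.53. The brighter Anapc5 probe read 16.20 in Tbx5-/+ number 1, below 16.95 to 17.08. The remaining flags were Hvcn1 at 8.80 in Tbx5-/+ number 6, below 9.61 to 9.76, and the separated Camkk2 probe at 10.34 in wild-type number 7, above 10.10 to 10.14. The part of any library in these values was not tested.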

How the results depend on the processing

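The median relative difference of the members stayed below 0 under every alternative, from -0.35 without Tbx5-/+ number 1 to -0.12 with no filter on dim probes, and over the fits leaving out 1 sample it was -0.35 to -0.18. The count of members called by limma was 0 under every other scaling, filter or block tried except these: 12 with the replicate block, 51 with array weights, 2 after the dim-probe filter that the methods describe (47 probes tested), 22 by SAM, and 0 to 16 when 1 sample was left out (16 without Tbx5-/+ number 1, 3 without wild-type number 1). Separated members numbered 6 to 10 over the other scalings and filters and 8 to 32 when 1 sample was left out, with 32 without Tbx5-/+ number 1, 24 without wild-type number 6, 20 without wild-type number 1 and 14 without Tbx5-/+ number 5. The replicate block, which pairs samples by embryo number, changed no other call of a member.

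Some named probes changed the sign of their relative difference. With 75th-percentile scaling the second Tpcn1 probe was at 0.0076 and the brighter Ppp1cc probe at 0.0812. With quantile normalization the most 5' Med13l probe was at 0.0778, Sdsl at 0.0114, the second Tpcn1 probe at 0.0902, and the brightest Ptpn11, Erp29 and Anapc5 probes at -0.0156, -0.0567 and -0.0452. The overlapping Camkk2 probe was at -0.19 with no dim filter, -0.0097 with all 8 arrays above background and -0.13 with array weights. With the methods' filter the 5' Med13l and second Tpcn1 probes were at 0.23 and 0.21, and with array weights the second Tpcn1 and brighter Ppp1cc probes at 0.24 and 0.13. With 1 sample left out, ranges that crossed 0 were -0.32 to 0.13 for the 5' Med13l probe, -0.50 to 0.64 and -0.21 to 0.0075 for the Tpcn1 probes, -0.37 to 0.0128 for Sdsl, -0.0843 to 0.0419 for the brighter Ppp1cc probe and -0.0162 to 0.12 for the overlapping Camkk2 probe. The cause was not tested. Members near background are limited by their signal, and the 62 untested probes allow no statement.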
